A study of Rattus norvegicus with 2 samples.

Results

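The cytosolic and mitochondrial heat shock chaperones were followed as a set of 40 genes: the HSP70, HSP110, HSP90, HSP60 and small heat shock proteins, their J-domain and BAG partners, the co-chaperones of HSP90, and the transcription factor genes Hsf1 and Hsf2. A gene belonged to the set when its symbol was on a fixed list and the array file gave that symbol to a non-control probe. All 40 had a probe, out of 27235 named genes on the array. The cells were IEC6, a non-transformed rat line from small intestinal epithelium, grown in dishes and kept in low-serum DMEM, to which either sodium trisulfide (Na2S3, a polysulfide salt) or plain water was added for 60 min. The dose is 100 µM in the sample label and the design text, and 100 mM in the treatment protocol. Each group was 1 RNA sample on 1 single-colour Agilent array, so the 2 arrays give no replicate spread, no test between groups was possible, and "higher" and "lower" describe these arrays.

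Heat shock proteins keep other proteins folded. HSP70 proteins bind unfolded stretches with the help of J-domain proteins, HSP110 proteins and BAG proteins drive nucleotide exchange on them, and clients such as kinases and steroid receptors pass on to HSP90. When unfolded protein builds up, the transcription factor HSF1 is released from chaperones, forms trimers and binds heat shock elements, which are inverted repeats of the pentamer nGAAn. Oxidants and electrophiles that modify cysteines are known activators of this response, and the inducible HSP70 genes, Dnajb1, Hsph1 and Bag3 are among its classic early targets. Constitutive members such as Hspa8 and Hsp90ab1 serve the unstressed cell.

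Signals are Agilent processed intensities scaled to a common 75th percentile. Where a gene had several probes well above background in both groups, the brightest stands for it, and ratios are Na2S3 over water. The spot error is the spread of the ratio between repeat spots at similar signal, divided by the square root of the spot number; it does not cover differences between cultures. Over 3181 genes with several measured probes, the probes of a gene differed with an SD of 0.24 on the log2 scale, and over the 12 such chaperone genes the SD was also 0.24. Of 12 intestinal epithelial markers, 6 were measured on both arrays. These were Krt8 (17079 units in the water array), Cdh1 (15801), Cdx1 (2242), Lgals4 (780), Krt19 (231) and Krt18 (153). Epcam, Vil1, Krt20, Cdx2, Fabp2 and Cldn7 were not well above background on both. Of 9 fibroblast markers, 8 were measured. They ranged from Col3a1 (98853 units in the water array), Col1a1 (77042) and Vim (41606) down to Thy1 (138) and Acta2 (70.7). Of 8 immune and endothelial markers, 5 were measured: Vwf (2670), Tek (902), Cd68 (95.1), Cdh5 (45.8) and Ptprc (31.4). A marker counted as measured was only well above background, which does not show that a cell type was present. Fewer cells of a type and less RNA per cell cannot be told apart in such bulk samples.

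The promoters of the set were searched for heat shock elements, since these are the sequences through which HSF1 acts. RefSeq promoters of the GRCr8 build, from 250 bases before to 50 after the annotated start, were matched for 33 of the 40 genes. The element searched had 3 units, GAA, TTC and GAA in this order with NN (any 2 bases) between them; on the other strand it reads TTC, GAA and TTC. Both strands were searched and overlapping matches kept. It was found in 6 of the 33 chaperone promoters (18.2%), against 267 of all 33469 promoters (0.798%). The 6 were Hspa8, Hspd1, Hspe1, Hsph1, Dnaja1 and Chordc1, and in Dnaja1 and Chordc1 the match lay after the start. Hspa8 held 2 elements before its start, one from -213 to -201 and one from -55 to -43, close to a TATAA at -32. They are in capitals in its upstream 250 bases (GRCr8 chr8:50080264-50080513, plus strand), shown because the elements of Hspa8 stood apart from each other and the gene was read by 4 probes. No match in another promoter says only that these letters are not in this window.
Hspa8: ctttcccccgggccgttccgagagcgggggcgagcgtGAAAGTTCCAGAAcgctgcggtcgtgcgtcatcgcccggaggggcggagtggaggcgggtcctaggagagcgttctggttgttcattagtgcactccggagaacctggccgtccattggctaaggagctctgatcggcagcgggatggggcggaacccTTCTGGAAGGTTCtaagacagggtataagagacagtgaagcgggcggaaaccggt

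Hspd1 and Hspe1, the mitochondrial chaperonin and its co-chaperonin, are transcribed away from each other from starts 290 bases apart, and the same 18-base block of overlapping elements (chr9:64084262-64084279) lies between them. It is printed on the strand of each gene, beside the element of Hsph1 (chr12:10427332-10427344, plus strand, from -36 to -24), to show how alike the matched letters are. Capitals mark the matched bases.
Hspd1: ggggccTTCCGGAAGGTTCTAGAAccgagc
Hspe1: gctcggTTCTAGAACCTTCCGGAAggcccc
Hsph1: cgcagaTTCTGGAAAGTTCtcctca

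After 60 min, the heat shock chaperones stood close to their water levels, as did most measured genes. Of the 40 genes, 39 were measured on both arrays, and 37 of these lay within 1.5-fold, against 93.6% of all genes. None reached 2-fold in either direction (0 higher and 0 lower), where a ratio of 2-fold or more was seen upwards in 0.942% and downwards in 0.62% of all 13062 measured genes. Hspa4l was the only chaperone at least 1.5-fold higher (2.96% of all genes) and Hspa4 the only one at least 1.5-fold lower (3.41% of all genes). The chaperone median was -0.03 on the log2 scale, and the median of all genes was -0.04. A positive ratio was found for 17 of the 39, against 43.4% of all genes. Within 1.2-fold lay 33 of the 39, against 71.7% of all genes, and the SD of the ratios was 0.23 over the chaperones and 0.34 over all genes.

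**Figure D1:**
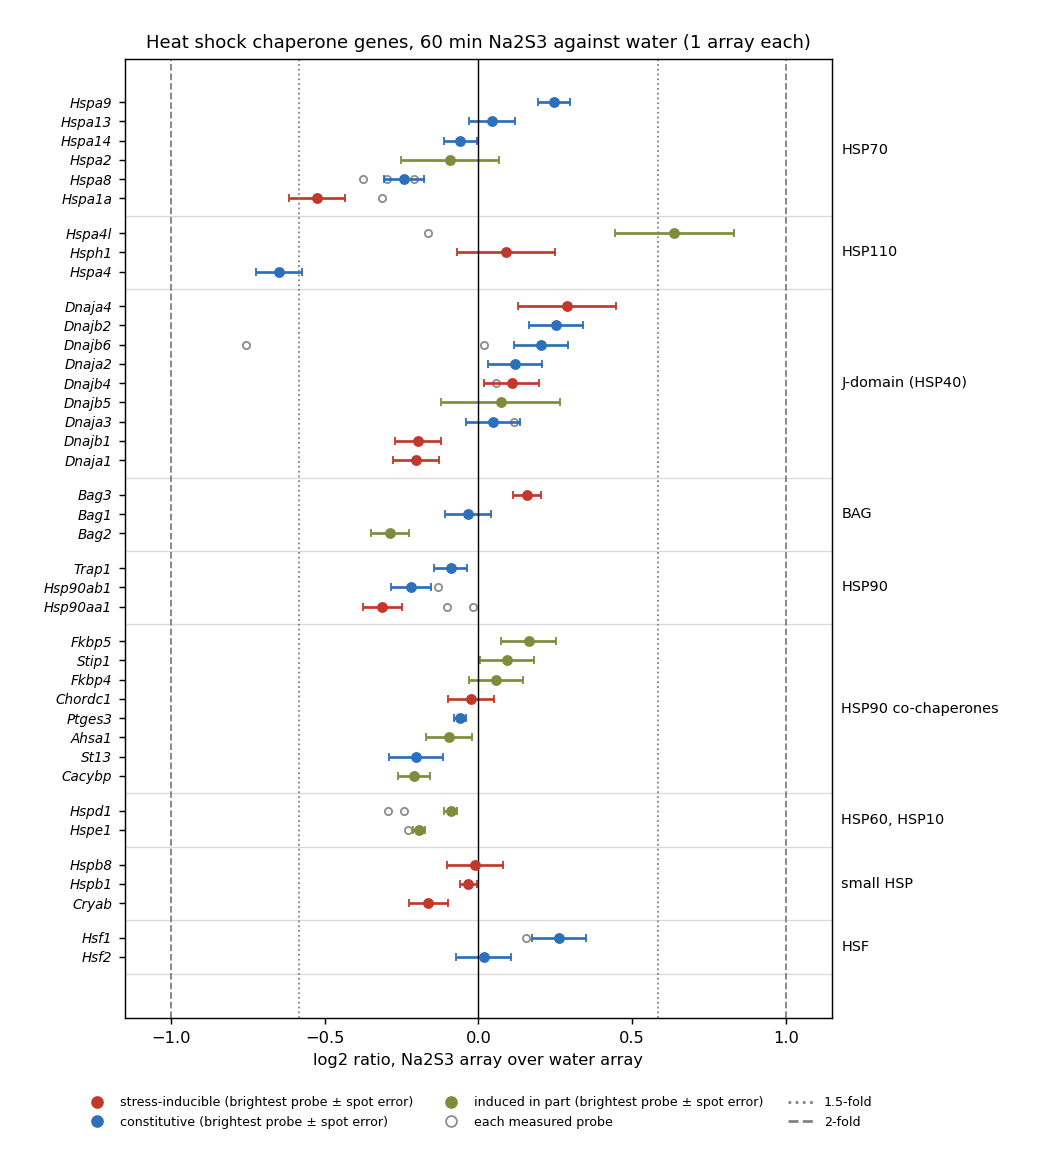
Each of the 39 measured chaperone genes is a row, grouped by role; the x axis is the log2 ratio of the Na2S3 array over the water array, the filled point is the brightest probe with its spot error, and open circles are all measured probes. The values run from -0.65 for Hspa4 to 0.64 for Hspa4l, between the dashed 2-fold lines, and the other 37 genes lie inside the dotted 1.5-fold lines.

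The inducible HSP70 gene Hspa1a, the classic reporter of a heat shock response, was lower in the Na2S3 array. Its brighter probe read 580 intensity units in the water array and 403 in the Na2S3 array, a log2 ratio of -0.53 with a spot error of 0.09, or 1.44-fold lower. The dimmer probe (rn4 chr20:3956838-3956897) read 118 and 94.7, a log2 ratio of -0.31 with a spot error of 0.19. Both probes thus read lower with Na2S3, by more than 1 spot error each. Hspa1b, its neighbouring copy, was represented by 1 probe (rn4 chr20:3959493-3959552) that read 4.81 and 4.32 units, not well above background on either array, so no ratio is given. Whether the Hspa1a probes also bind Hspa1b transcripts, which are nearly identical in their coding part, was not tested.

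The other HSP70 genes showed small differences of either sign. Hspa8, the constitutive HSC70, read 106136 units in the water array and 89778 in the Na2S3 array, a log2 ratio of -0.24 with a spot error of 0.06. Its 4 probes gave log2 ratios from -0.38 to -0.21, all below 0. Hspa9, the mitochondrial HSP70 mortalin, read 7592 and 9002, a log2 ratio of 0.25 with a spot error of 0.05. Its second probe also gave 0.25, so the 2 probes were closer to each other than the spot error. Hspa2 (-0.09), Hspa13 (0.05) and Hspa14 (-0.06) lay within 1.2-fold. Hspa2 is best known from the testis, and Hspa14 works at the ribosome.

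The HSP110 genes, whose products act as nucleotide exchange factors for HSP70, held both genes past 1.5-fold. Hspa4 read 6737 units in the water array and 4296 in the Na2S3 array, a log2 ratio of -0.65 with a spot error of 0.07, or 1.57-fold lower. That value rests on 1 spot of 1 probe (rn4 chr10:38705692-38705751) and was between -0.65 and -0.59 under the 9 alternative processings. Hspa4l read 53.7 and 83.5 at its brighter probe (rn4 chr2:127756381-127756440), a log2 ratio of 0.64 with a spot error of 0.19, or 1.56-fold higher. Its other probe (rn4 chr2:127750897-127750956) read 56.5 and 50.5, a log2 ratio of -0.16, so the probes of Hspa4l differed in sign and no direction is settled for it. The ratio of the brighter probe was 0.31 with normexp background correction, and the median of its probes was 0.24. Hsph1, the inducible HSP110 with an element at -36, read 155 and 165, a log2 ratio of 0.09, within its spot error of 0.16.

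The median of the 9 J-domain genes, whose products hand clients to HSP70, was 0.11, against -0.04 over all genes. A positive ratio was found for 7 of the 9, against 43.4% of all genes. The exceptions were Dnajb1 and Dnaja1, both counted here as stress-inducible. Dnaja4 (0.29) and Dnajb4 (0.11), also counted as stress-inducible, had positive ratios. Dnajb1 read 4390 units in the water array and 3827 in the Na2S3 array, a log2 ratio of -0.20 with a spot error of 0.07. Dnaja1 read 9469 and 8228, a log2 ratio of -0.20 with a spot error of 0.07. Dnaja4 (0.29, spot error 0.16), Dnajb2 (0.25, spot error 0.09) and Dnajb6 (0.20, spot error 0.09) had the highest ratios of the family. The probes of Dnajb6 did not go together: a second one at nearly the same position gave 0.02, and a dim one, at 51.6 units in the water array and 30.5 in the Na2S3 array, gave -0.76. Dnaja2 (0.12), Dnajb4 (0.11), Dnajb5 (0.07) and Dnaja3 (0.05), the last of them mitochondrial, completed the family. The ratios of Dnajb5 and Dnaja3 were smaller than their spot errors of 0.19 and 0.09.

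Bag3, a co-chaperone that couples HSP70 to selective autophagy and a strong HSF1 target, was slightly higher. It read 16456 units in the water array and 18367 in the Na2S3 array, and its 2 spots gave log2 ratios of 0.15 and 0.17, with a mean of 0.16. Bag2, an inhibitor of the ubiquitin ligase CHIP, gave -0.29 with a spot error of 0.06, and Bag1 gave -0.03. The BAG genes thus had no common direction.

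The HSP90 genes had negative ratios at every measured probe, although a second probe of Hsp90aa1 turned to 0.06 with normexp, 0.10 with cyclic loess and 0.12 in the deposited table. Hsp90aa1, the inducible cytosolic form, read 50145 units in the water array and 40382 in the Na2S3 array, a log2 ratio of -0.31 with a spot error of 0.06. Its second probe (rn4 chr6:135413629-135413688) gave -0.02, and another, which carries an expressed sequence tag and is listed on the opposite strand, gave -0.10. The difference between the brightest and the second probe exceeded their spot errors. Hsp90ab1, the constitutive form, read 33505 and 28773, a log2 ratio of -0.22, and its second probe gave -0.13. Trap1, the mitochondrial HSP90, gave -0.09. After cyclic loess the ratios were -0.17 for Hsp90aa1, -0.09 for Hsp90ab1 and -0.02 for Trap1.

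The 8 genes that assist HSP90 had a median of -0.04, with 3 positive ratios. Fkbp5, an immunophilin gene best known as a glucocorticoid receptor target, read 717 units in the water array and 802 in the Na2S3 array, a log2 ratio of 0.16 with a spot error of 0.09. Stip1, which bridges HSP70 and HSP90, gave 0.09, and the immunophilin gene Fkbp4 gave 0.06. Chordc1, an HSF1-driven partner of HSP90, gave -0.03, and Ahsa1, which stimulates the HSP90 ATPase, gave -0.09. Cacybp (-0.21) and St13, the HSP70-interacting protein HIP (-0.20), had the lowest ratios. Ptges3, the p23 co-chaperone, was read by 10 spots and gave -0.06, with an SD of 0.09 over the spots.

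The mitochondrial chaperonin pair was read by more spots than most of the set. Hspd1, which encodes HSP60, read 17846 units in the water array and 16762 in the Na2S3 array over 10 spots. Its log2 ratio was -0.09 with an SD of 0.09 over the spots, which ran from -0.23 to 0.05. Hspe1, which encodes HSP10, read 28207 and 24669 over 10 spots, a log2 ratio of -0.19 with an SD of 0.03 over the spots. A second Hspe1 probe gave -0.23, and the further Hspd1 probes gave -0.24 and -0.29. The genes on either side of the block printed above thus both read slightly lower with Na2S3 at all 5 probes, although cyclic loess brought the brightest Hspd1 probe to 0.01. Over the 5 mitochondrial genes, Hspa9, Trap1, Hspd1, Hspe1 and Dnaja3, the median was -0.09 and 2 ratios were positive, against a median of -0.03 over the other 34 measured genes.

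The small heat shock proteins, which hold unfolding proteins in a refoldable state without ATP, were within 1.2-fold. Hspb1, which encodes HSP27, was read by 10 spots at 2896 units in the water array and 2831 in the Na2S3 array. Its log2 ratio was -0.03 with a spot error of 0.03. Its single spots had an SD of 0.03 and ran from -0.08 to 0.02. Cryab, the alpha-B crystallin gene, read 55097 and 49202, a log2 ratio of -0.16 with a spot error of 0.06. Hspb8, a partner of BAG3, read 893 and 886, a log2 ratio of -0.01.

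The heat shock factor genes had ratios at or above 0. Hsf1 read 1444 units in the water array and 1731 in the Na2S3 array, a log2 ratio of 0.26 with a spot error of 0.09, and its second probe gave 0.15. Hsf2 read 1980 and 2003, a log2 ratio of 0.02. HSF1 is controlled mainly as a protein, so the transcript is not a measure of its activity.

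Stress-inducible and constitutive chaperones had close medians and overlapping ranges, and their difference was not tested. Of 12 measured inducible genes, 4 had a positive ratio, and their median was -0.03, with values from -0.53 to 0.29. Of 16 measured constitutive genes, 8 had a positive ratio, and their median was -0.0079, with values from -0.65 to 0.26. The inducible minus constitutive difference of the medians was -0.02, and the ranges of the groups overlapped over most of their length. The median spot error was 0.07, but it is for the ratio of 1 gene and not for a difference between medians. The 11 genes induced in part had a median of -0.09 and 5 positive ratios; counting them as inducible left the difference at -0.02.

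**Figure D2:**
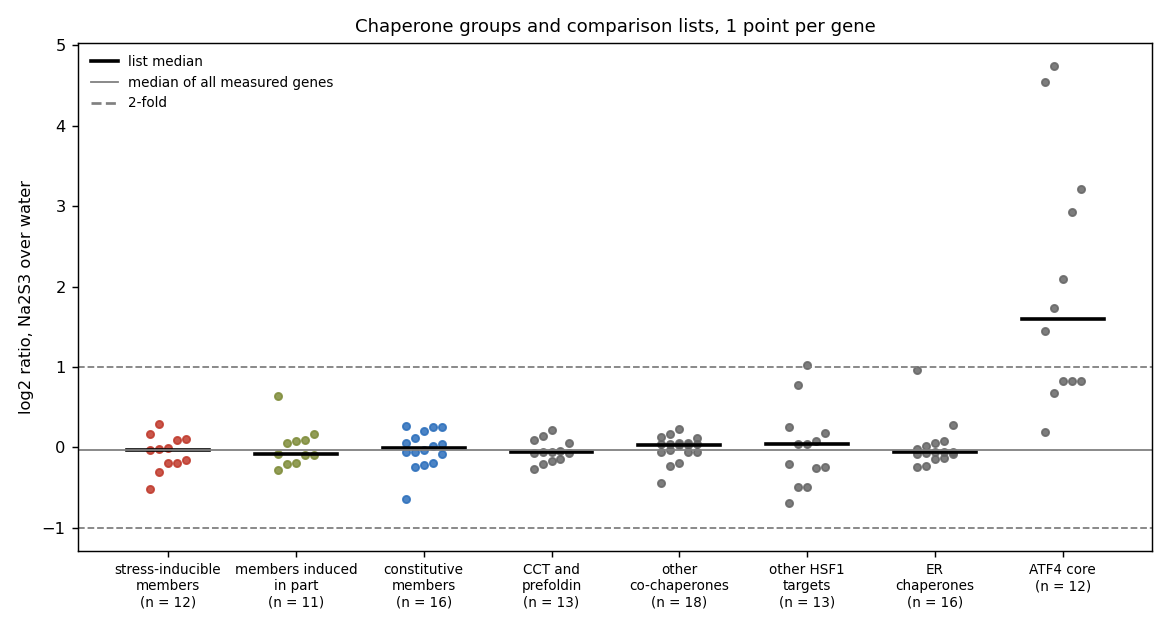
Each point is 1 gene, the y axis is its log2 ratio of the Na2S3 array over the water array, and bars are list medians, with the number of measured genes under each list. The chaperone groups, with medians of -0.03, -0.09 and -0.0079, lie on the line of all genes, while the ATF4 list has a median of 1.59.

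The small differences within the set were in part larger than the spot error. More than 2 spot errors above the median of all genes stood 8 of the 39 (Hspa4l, Hspa9, Dnaja4, Dnajb2, Dnajb6, Bag3, Fkbp5 and Hsf1), against 18.6% of all genes. More than 2 spot errors below it stood 11, against 17.7% of all genes. These were Hspa1a, Hspa4, Hspa8, Hsp90aa1, Hsp90ab1, Hspd1, Hspe1, Dnaja1, Dnajb1, Bag2 and Cacybp. Hspd1 passed with a spot error of 0.02, which is for a mean over 10 spots and was taken from probes of similar signal. The SD of single spots was 0.06 over such probes and 0.09 over the spots of Hspd1 itself. Cyclic loess brought the ratio of Hspd1 to 0.01. Of the 39 values, 29 rest on 1 spot per array. The between-probe SD of 0.24 was larger than most ratios of the whole set. Of the genes named here, Dnajb6, Bag3, Fkbp5, Hsp90ab1, Hspd1, Hspe1, Dnaja1, Dnajb1 and Cacybp also had ratios smaller in size than this SD. Hspa8 (-0.24) and Hspa9 (0.25) were about equal to it in size, and the others named were larger.

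Brightness moved with the ratio. The 8 chaperones above 16384 units had a median log2 ratio of -0.18, and all 782 genes in that range had a median of -0.15. The 12 chaperones between 1024 and 4096 units had a median of 0.08, and all 3189 genes there had a median of -0.0069. After cyclic loess, which removes such a trend, the bright chaperones had a median of -0.04 and all bright genes one of -0.01. Hspa8 then stood at -0.07, Hspe1 at -0.07, Cryab at -0.02 and Hspd1 at 0.01, whereas Hspa1a stood at -0.52 and Hspa4 at -0.59.

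**Figure D3:**
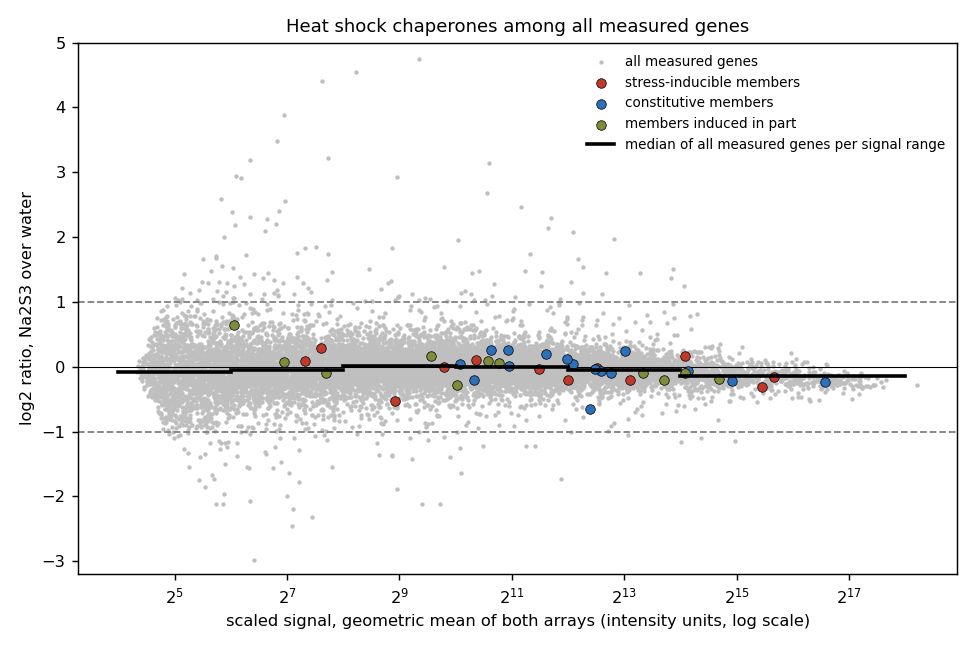
The x axis is the scaled signal (geometric mean of the arrays, log scale), the y axis the log2 ratio of the Na2S3 array over the water array; grey points are all 13062 measured genes, coloured points the 39 chaperones, and black bars the median of all genes per signal range. The bars drop to -0.15 above 16384 units, where Hspa8, Hsp90aa1 and Cryab lie, and none of the coloured points reaches a dashed 2-fold line.

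Whether chaperones with a heat shock element had the higher median ratio depended on the element's length. The 6 chaperones with the 3-unit element ran from -0.24 for Hspa8 to 0.09 for Hsph1, with a median of -0.14. The 27 measured chaperones whose promoter lacked it had a median of -0.01. Of the 6, Hspa8, Hspd1 and Hspe1 lay above 16384 units, where all genes had a median of -0.15. After cyclic loess, Hspa8 stood at -0.07, Hspd1 at 0.01 and Hspe1 at -0.07. Dnaja1 then stood at -0.12, Chordc1 at 0.04 and Hsph1 at 0.12. Over the whole array, 45 measured genes had the element, with a median of -0.06 and 2 of them at least 1.5-fold higher (4.44%), and 9469 lacked it, with a median of -0.03 and 2.98% at least 1.5-fold higher. The 2 higher genes were Osgin1 (2.55) and Iapp (2.59), and Bst2 (-1.73) was the element-bearing gene that stood lowest; these were named after their values were seen. The shorter 2-unit element was GAA and TTC in either order with NN between them. It was matched in 17 of the 33 chaperone promoters (51.5%), against 15.9% of all promoters. Those 17 had a median of -0.03, above the -0.05 of the 16 without it. That difference was smaller than the median spot error of 0.07, which is for the ratio of 1 gene and not for a difference between medians.

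Further groups of the chaperone network also stood near their water levels. The cytosolic chaperonin CCT and prefoldin, which fold actin and tubulin, had 13 measured genes, 0 past 1.5-fold and a median of -0.06, from Pfdn5 at -0.27 to Tcp1 at 0.21. Further co-chaperones had 18 measured genes, 0 past 1.5-fold and a median of 0.03, from Dnajc7 at -0.44 to Unc45a at 0.23. Other genes that HSF1 can induce had 13 measured members and a median of 0.04, and they spread more widely. Hmox1, the heme oxygenase gene that NRF2 also drives, was the highest at 1.02 (650 units in the water array and 1317 in the Na2S3 array), and Zfand2a, an arsenite-inducible zinc finger gene, gave 0.77 (3108 and 5306). Dedd2, a gene of the death effector domain family, gave -0.69. Hspa1l and Hspb7 were not measured on both arrays.

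Neighbouring stress programmes in the same RNA gave other values. Of 16 ER chaperone and stress genes, 1 was at least 1.5-fold higher, Herpud1 at 0.96, and the median was -0.06. Of 12 genes of the ATF4 and CHOP response, 11 passed 1.5-fold and 7 passed 2-fold upwards, with a median of 1.59, led by Atf3 (4.75), Trib3 (4.54) and Sesn2 (3.21). These lists were drawn up with earlier results of the same arrays known, and the difference between lists was not tested.

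**Figure D4:**
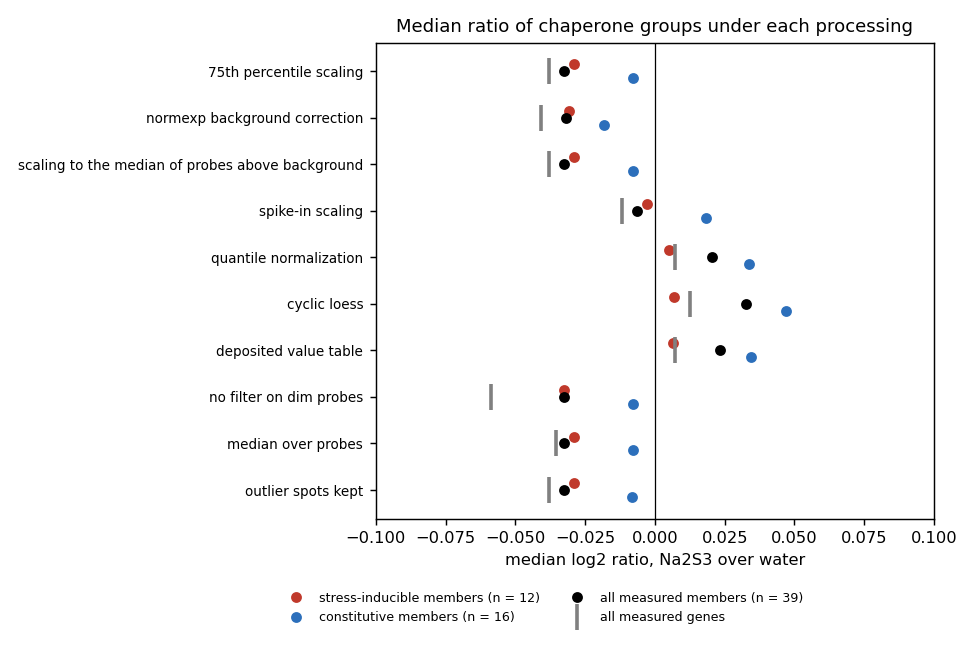
The x axis is the median log2 ratio of the Na2S3 array over the water array, and rows are the processing used and its 9 alternatives; dots are inducible (n = 12), constitutive (n = 16) and all measured chaperones (n = 39, with 1 more inducible gene where dim probes are kept), and grey ticks are all genes. The chaperone median runs from -0.03 to 0.03 and moves with that of all genes.

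The sign of these medians depended on the scaling. The chaperone median was 0.02 with quantile normalization, 0.03 with cyclic loess and 0.02 in the deposited value table, where the median of all genes was 0.0071, 0.01 and 0.0072. Of the 39 genes, 30 kept their sign under all 9 alternatives, 16 positive and 14 negative. The other 9, Chordc1, Bag1, Hspd1, Ptges3, Cryab, Hspb8, Dnaja3, Hspa14 and Hspb1, had ratios within 1.2-fold and no settled direction. A kept sign does not settle a direction either, since all alternatives reprocess the same 2 arrays. Hspa4l and Dnajb6 were among the 30, although their own probes gave both signs. Hspa1a was between -0.53 and -0.42 under every alternative.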

How the data were processed

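Total RNA of IEC6 cells, 1 sample per group, was labelled with Cy3 and hybridised to an Agilent array each. Spot intensity values came from Agilent Feature Extraction 10.7.1.1, per the file headers (the submitters' processing notes name 9.5.1.1), background-subtracted and detrended within the array. The deposited value table also holds linear intensity; how it was normalized is not stated.

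Outlier spots (448 and 390 of 58717 in the water and Na2S3 arrays) were dropped. The log2 signals of a probe's spots were averaged and set relative to the 75th percentile of that array's 45598 non-control probes, which lay at 413 and 478 units and differed by 0.21 on the log2 scale. No spot was saturated (0). A probe was measured when over 50% of its spots were well above background on both arrays (49.5% and 49.0% of probes on each). Chaperone genes were matched by the file's gene name; other genes were renamed through RefSeq accessions (GRCr8) for 21109 probes, and 9746 probes had no gene name. Of 57 chaperone probes, 51 had an accession that matched. Probe coordinates are rn4, per the file headers; exon and UTR positions were not analysed here. Ratios and the choice of the brightest probe were checked on simulated data. limma 3.58.1 (R 4.3.3) gave normexp (offset 50), quantile and loess alternatives.

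The genes, lists and alternatives were chosen with earlier results of these data known. Named were all measured chaperones, and up to 3 genes of each other list with the largest ratio either way; a few more are marked in the text as chosen after their values were seen.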

Additional observations from a re-analysis of the deposited data

How the results depend on the processing

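With 1 array per group, the number of arrays limits the precision, and no replicate could be left out. No paired analysis was possible because each group has 1 sample. The 0 chaperones past 2-fold in either direction stayed 0 under all 9 alternatives, and the inducible minus constitutive difference ran from -0.04 to -0.01. The count at least 1.5-fold higher was 1, and 0 with normexp background correction and with the median over probes, both through Hspa4l. Of 351 chaperone values under an alternative, 298 moved by less than their spot error and 53 by more. The ATF4 median was 1.26 with normexp. The median of other HSF1 targets was 0.18 with quantile normalization, 0.17 with cyclic loess and 0.18 in the deposited table, and the ER chaperone median was 0.022 with quantile normalization and 0.023 in the deposited table, against 0.04 and -0.06 in the report, so the ER median also turned its sign. Alternatives for these other lists, and the count from any probe (1), were chosen after the data were seen. The 2-unit element was found in 51.5% of chaperone promoters.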
